A study of Mus musculus with 10 samples.

Results

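The genes described here are 9 that make or cut the amyloid precursor protein, out of 19939 genes measured on the array. They were taken by name, but with earlier results of these data known. They are the precursor gene App and its relatives Aplp1 and Aplp2, the beta-secretase gene Bace1 and its relative Bace2, the alpha-secretase gene Adam10, and the gamma-secretase genes Psen2, Ncstn and Aph1a. All 9 had a probe set annotated to a single gene. Aph1a had 2 such probe sets and is given by the one with the higher mean.

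Hippocampal RNA of 5 Dp3Yah and 5 control littermates, all males of 16 weeks, was hybridised with 1 array per mouse. Dp3Yah mice, genotype Mut in the labels, carry 3 copies, against 2 in the WT controls, of the stretch of chromosome 16 from Hspa13 to Gabpa. Neither group received a treatment. The labels give a C57BL/6N background for both groups, while the methods of the study name C57BL/6J. The full name of the line, Dp(16Hspa13-App)3Yah, ends at App, and the methods describe App as complete in its usual number of copies only. Whether a partial further copy of App exists at the breakpoint cannot be told from the values used here. The mice were separate animals, and p-values measure the spread between them.

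The amyloid precursor protein is a membrane protein of neurons and many other cells, and its gene lies on human chromosome 21, so that people with Down syndrome carry an extra copy. Cleavage by alpha-secretase within the amyloid beta sequence precludes the peptide, whereas cleavage by beta-secretase and then by gamma-secretase releases it. Gamma-secretase is a complex of a presenilin, nicastrin, an Aph1 subunit and a presenilin enhancer.

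On GRCm38.p6, App spans chr16:84952666-85175255 on the minus strand, a gene of 223 kb. It begins 88.9 kb beyond the end of Gabpa, the last gene of the duplicated interval, and the next gene measured on its far side, Cyyr1, follows after 278 kb. Because App is read from the minus strand, its promoter is at the end away from the duplication. Bace2 is on the same chromosome, at chr16:97356728-97442936, 12.2 Mb distal of App. Aplp1 is on chromosome 7, Aplp2, Bace1 and Adam10 on chromosome 9, Psen2 and Ncstn on chromosome 1, and Aph1a on chromosome 3.

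The promoters of App, of its relative Aplp2 and of Gabpa are shown. Gabpa, present in 3 copies, encodes the DNA-binding subunit of an ETS-family transcription factor. A longer form of the motif of such factors, CCGGAA, was searched, also in genes that stayed at 2 copies. Each promoter window is the 250 bases before an annotated start in RefSeq (GRCm38.p6), read 5′ to 3′ on the strand of the gene. The letters CCGGAA or their reverse complement TTCCGG are in capitals. The App window is at chr16:85173708-85173957 on the minus strand, inside the span of the gene, which reaches further upstream. The Aplp2 window is at chr9:31211849-31212098 on the minus strand, and the Gabpa window at chr16:84834874-84835123 on the plus strand. The Gabpa window too lies mostly inside the span of its gene, which begins at 84834891.
App: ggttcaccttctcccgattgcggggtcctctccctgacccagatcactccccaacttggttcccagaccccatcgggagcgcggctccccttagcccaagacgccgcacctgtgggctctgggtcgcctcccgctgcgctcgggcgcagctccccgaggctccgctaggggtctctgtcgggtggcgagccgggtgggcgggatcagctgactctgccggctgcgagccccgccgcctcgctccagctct
Aplp2: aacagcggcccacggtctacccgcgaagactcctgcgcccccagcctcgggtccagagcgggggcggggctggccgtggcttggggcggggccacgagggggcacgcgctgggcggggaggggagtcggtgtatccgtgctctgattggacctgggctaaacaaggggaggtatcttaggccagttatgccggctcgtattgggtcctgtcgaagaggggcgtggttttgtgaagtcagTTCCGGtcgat
Gabpa: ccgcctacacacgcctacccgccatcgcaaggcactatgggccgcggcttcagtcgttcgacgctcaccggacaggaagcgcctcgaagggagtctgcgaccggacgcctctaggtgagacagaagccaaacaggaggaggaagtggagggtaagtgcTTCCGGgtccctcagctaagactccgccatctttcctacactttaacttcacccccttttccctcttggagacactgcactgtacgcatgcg
This longer form was not in the App window, which was 70.8% G and C. It stood once in that of Aplp2, where its first base lay 11 bases before the start. It stood once in the Gabpa window. Shorter or variant forms of the motif were not counted in any window, so their absence from App is not shown. A window was at hand for 7 of the 9 genes (Bace1 and Bace2 had none), and the motif was in those of 4, namely Aplp1, Aplp2, Ncstn and Aph1a, and not in those of App, Adam10 and Psen2. Of the genes of the duplicated interval next to App, 3 had a window (Mrpl39, Atp5j and Gabpa), and each had the motif in a window. The matches of Gabpa and Atp5j are the same bases, since their windows overlap on opposite strands. These are therefore not separate sites, and the other window of Atp5j held no match. Among all 32851 windows at hand, 12.0% held the motif on either strand. That share counts windows and not genes, and some genes have several, so it is no direct measure for the 7 genes. A match describes the letters of a window and was not tested as a binding site.

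Dp3Yah and control hippocampi were compared gene by gene. None of the 9 genes passed limma at an adjusted p under 0.05 over all genes, a threshold that 0.015% of all genes passed, 3 genes in number, all of them higher in Dp3Yah. None of the 9 reached an unadjusted p under 0.05 either, which 5.08% of all genes did (2.49% higher and 2.59% lower in Dp3Yah), and none passed the threshold of a rank test in the manner of the study, which 4.59% of all genes passed. The log2 changes (Dp3Yah minus control) ran between -0.02 for Bace1 and 0.09 for Ncstn, with a median of 0.01, beside a median of -0.0047 over all genes. The median size of a change, its sign left out, was 0.02 over the 9 genes and 0.04 over all genes. The values of the groups overlapped for each of the 9 genes, while 0.522% of all genes had their 5 Dp3Yah values wholly above the controls and 0.391% wholly below.

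**Figure D1:**
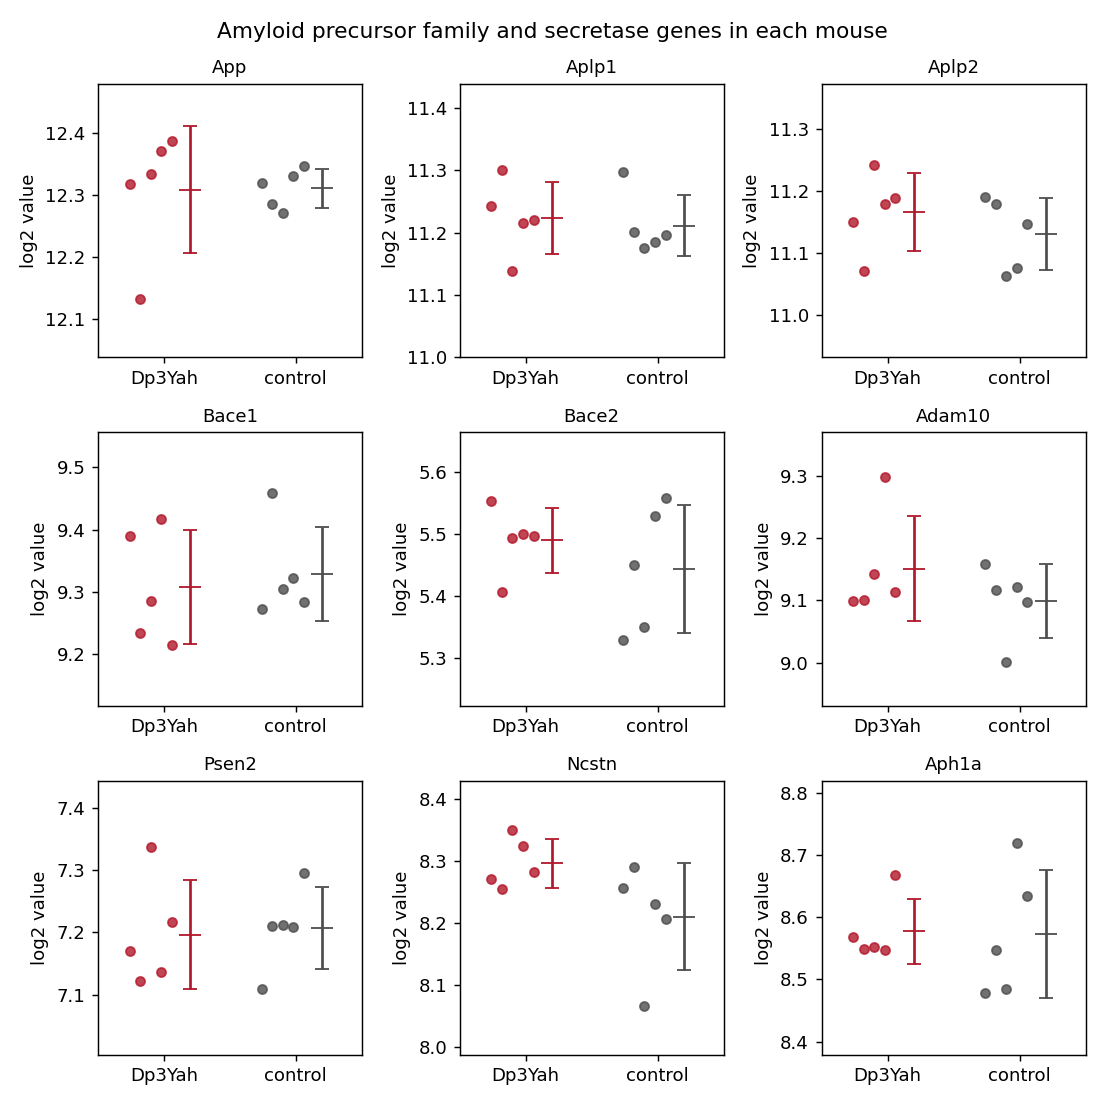
Log2 value (y axis) of each of the 9 genes in each mouse, Dp3Yah on the left of each panel and control on the right, 5 mice each; points are mice and bars the group mean with its SD. Each panel spans the same range of log2 units, the groups overlap in every panel, and Dp3Yah replicate 2 stands lowest for App at 12.13.

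App, the precursor itself, had log2 values of 12.32, 12.13, 12.33, 12.37 and 12.39 in Dp3Yah mice 1 to 5, against 12.32, 12.29, 12.27, 12.33 and 12.35 in control mice 1 to 5. Dp3Yah replicate 2 lay below every control, replicates 4 and 5 lay above every control, and the remaining Dp3Yah mice fell within the range of the controls. The mean was 12.31 ± 0.10 in Dp3Yah and 12.31 ± 0.03 in control (SD, n = 5 each). The change was -0.0024 (SE 0.050, 95% interval -0.11 to 0.11, limma adjusted p = 0.997), with an upper bound of 1.08-fold. The ratio of 3 copies to 2 is 1.5, but this bound alone does not tell copy numbers apart, since the upper bounds of Mrpl39 and Atp5j, both in 3 copies, were 1.49-fold and 1.32-fold. Leaving out Dp3Yah replicate 2 moved the change to 0.04, which did not pass the test either.

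The 4 genes of the duplicated interval that lie next to App were read on the same arrays. Mrpl39, of the mitochondrial ribosome, had 9.46, 9.42, 9.58, 9.44 and 9.61 in Dp3Yah mice 1 to 5, against 8.999, 9.07, 9.02, 9.02 and 9.02 in control mice 1 to 5. Gabpa had 8.03, 7.82, 7.83, 8.03 and 7.84 in Dp3Yah mice, against 7.62, 7.31, 7.48, 7.54 and 7.40 in control mice. Each Dp3Yah mouse lay above each control for both genes, and the same held for Jam2, a junctional adhesion molecule, and for Atp5j, an ATP synthase subunit, a separation that 0.522% of all genes showed. Of the 4, Mrpl39 alone passed over all genes (limma adjusted p = 0.00336), and the median change of the 4 was 0.46. Under alternatives, Gabpa also passed with the replicate number as a block (limma adjusted p = 0.0452), with a trended and robust variance (0.0447) and with array weights (0.0307), and Jam2 with that variance (0.0447). Over all alternatives the adjusted p ran from 0.0307 to 0.331 for Gabpa and from 0.0447 to 0.652 for Jam2. All 4 were past the threshold of the rank test.

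To set App against these neighbours within each mouse, the mean log2 value of the 4 genes was taken from that of App. The difference was 2.55, 2.48, 2.53, 2.62 and 2.58 in Dp3Yah mice 1 to 5, against 2.97, 2.98, 3.01, 2.97 and 3.02 in control mice 1 to 5. The highest Dp3Yah mouse lay below the lowest control. The difference thus changed by -0.44 (95% interval -0.49 to -0.38; exact permutation test, two-sided, p = 0.00794, the smallest that 5 against 5 allows; adjusted over the 3 differences tested, 0.0238). Its parts were a change of -0.0024 for App and of 0.43 for the mean of the neighbours. That mean was 9.76 ± 0.063 in Dp3Yah and 9.32 ± 0.038 in control (SD, n = 5 each), 1.35-fold. The neighbours were separated between the groups on their own, so another gene without a change would be likely to give a like result. The p-value is therefore not particular to App, and the same difference was not computed for other genes. With mice of like number taken as pairs, an exact sign-flip test gave p = 0.0625, which is the smallest it allows with 5 pairs.

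**Figure D2:**
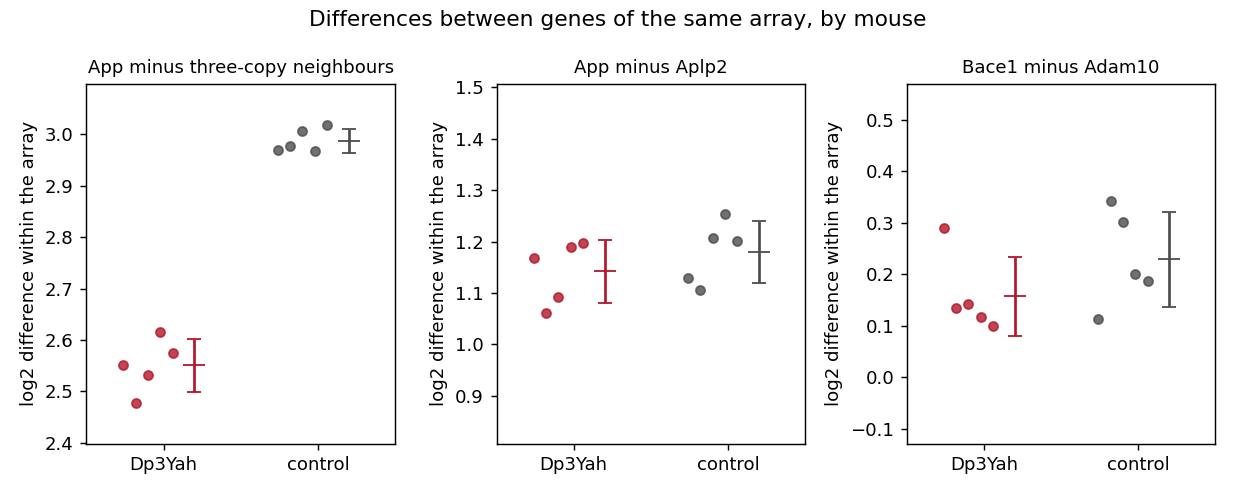
Difference of log2 values between genes of the same array (y axis), per mouse, Dp3Yah left and control right in each panel, with the group mean and SD (n = 5 each). For App minus the mean of its 4 three-copy neighbours the Dp3Yah mice lie at 2.48 to 2.62 and the controls at 2.97 to 3.02; in the panels for App minus Aplp2 and Bace1 minus Adam10 the groups overlap.

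On the far side of App, 10 measured genes present in 2 copies, Cyyr1 to Grik1, were also compared. None passed over all genes or at an unadjusted p under 0.05 (limma), and their median change was 0.02, with a range of -0.08 to 0.09. The smallest p values among them belonged to Ltn1, a ubiquitin ligase of stalled ribosomes, at 10.03 ± 0.072 in Dp3Yah and 9.94 ± 0.093 in control, to the extracellular protease gene Adamts5, at 4.43 ± 0.11 in Dp3Yah and 4.51 ± 0.076 in control, and to the kainate receptor gene Grik1, at 5.73 ± 0.026 in Dp3Yah and 5.79 ± 0.062 in control (mean log2 value ± SD, n = 5 each). Adamts5 and Grik1 lay below the median level of all genes, 6.38. Ltn1 had 16 probe sets, whose changes ran between 0.02 and 0.22. Of these, 4 reached an unadjusted p under 0.05, as did the mean of all 16, with a change of 0.14 (limma unadjusted p = 0.0443, adjusted p = 0.916, and 0.824 to 0.999 over the alternatives). The upper bound of the 95% interval lay below 0.58, the log2 of 1.5, for all 10 and for the 9 genes of the family and the secretases, and also for 2 of the 4 three-copy neighbours. The lower bound was above 0 for each of these 4 neighbours and for none of the 9 or the 10.

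**Figure D3:**
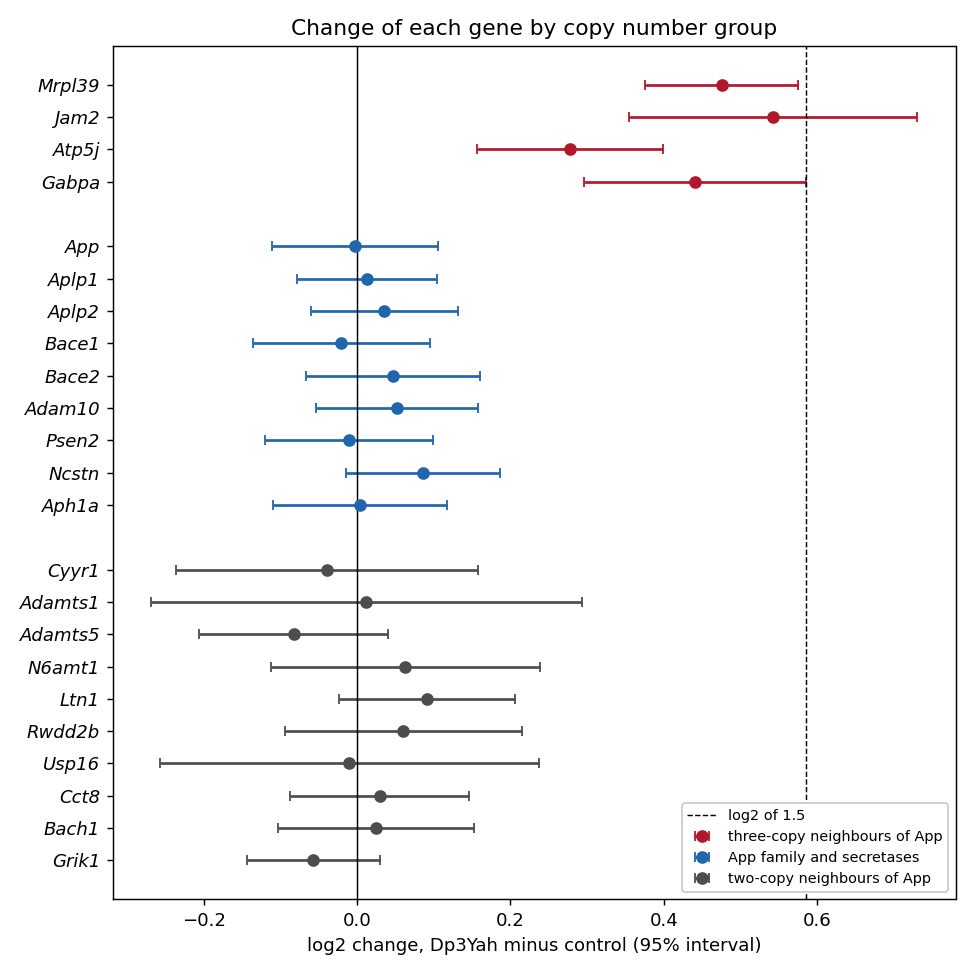
Log2 change (x axis, Dp3Yah minus control, with the 95% interval of limma) of the 4 three-copy neighbours of App, of the 9 genes of the precursor family and the secretases, and of the 10 two-copy neighbours. The dashed line is the log2 of 1.5 (0.58); App lies at -0.0024, between neighbours with changes of 0.28 to 0.54 on the side of the duplication and of -0.08 to 0.09 on the other.

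The precursor-like genes were next. Aplp1, which is expressed mainly in neurons, had 11.24, 11.30, 11.14, 11.22 and 11.22 in Dp3Yah mice 1 to 5, against 11.30, 11.20, 11.18, 11.18 and 11.20 in control mice. Dp3Yah replicate 2, lowest of its group for App, was highest for Aplp1, and control replicate 1 stood above the other controls. The change was 0.01 (95% interval -0.08 to 0.10, limma adjusted p = 0.985). Aplp2, the more widely expressed relative, had 11.15, 11.07, 11.24, 11.18 and 11.19 in Dp3Yah mice, against 11.19, 11.18, 11.06, 11.08 and 11.15 in control mice. Here Dp3Yah replicate 2 and control replicate 3 were lowest, as they were for App. The change was 0.04 (95% interval -0.06 to 0.13, limma adjusted p = 0.958).

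App was also set against Aplp2 within each mouse, as a relative on another chromosome. App minus Aplp2 was 1.14 ± 0.062 in Dp3Yah mice and 1.18 ± 0.060 in controls (log2 units, SD, n = 5 each). The groups overlapped, and the change of -0.04 was not past the threshold (95% interval -0.14 to 0.06, exact permutation p = 0.349, adjusted 0.349).

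The enzymes that make the first cut followed. Bace1, the beta-secretase of the brain, had 9.39, 9.23, 9.29, 9.42 and 9.21 in Dp3Yah mice 1 to 5, against 9.27, 9.46, 9.30, 9.32 and 9.28 in control mice. The single highest value was that of control replicate 2, while 2 Dp3Yah mice lay below every control. The change was -0.02 (95% interval -0.14 to 0.09, limma adjusted p = 0.981). Adam10, the main alpha-secretase of neurons, had 9.10, 9.10, 9.14, 9.30 and 9.11 in Dp3Yah mice, against 9.16, 9.12, 9.002, 9.12 and 9.10 in control mice. Dp3Yah replicate 4 alone lay above every control. The change was 0.05 (95% interval -0.05 to 0.16, limma adjusted p = 0.945), and 0.015 without that mouse.

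The balance of both enzymes in a mouse, Bace1 minus Adam10, was 0.157 ± 0.077 in Dp3Yah mice and 0.229 ± 0.092 in controls (log2 units, SD, n = 5 each). The ranges, 0.0996 to 0.291 in Dp3Yah and 0.113 to 0.342 in control, overlapped. The change of -0.07 did not pass (95% interval -0.20 to 0.06, exact permutation p = 0.214, adjusted 0.321). Bace2, the relative of Bace1 that is also located on chromosome 16, was the only one of the 9 genes below the median level of all genes, 6.38. It measured 5.41 to 5.55 in Dp3Yah and 5.33 to 5.56 in control, a change of 0.05 (95% interval -0.07 to 0.16, limma adjusted p = 0.951).

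The gamma-secretase subunits came last. Ncstn, which encodes the substrate receptor nicastrin, had 8.27, 8.26, 8.35, 8.32 and 8.28 in Dp3Yah mice 1 to 5, against 8.26, 8.29, 8.07, 8.23 and 8.21 in control mice. All 5 Dp3Yah mice were above the control mean and 2 were above every control, and control replicate 3 was the lowest of all. Its change of 0.09, the largest of the 9 genes, did not pass (SE 0.046, 95% interval -0.01 to 0.19, unadjusted p = 0.0878, limma adjusted p = 0.922). Without control replicate 3 the change of Ncstn was 0.05. Psen2, a catalytic presenilin, measured 7.12 to 7.34 in Dp3Yah and 7.11 to 7.30 in control, a change of -0.01 (95% interval -0.12 to 0.10). Aph1a, a scaffold subunit, measured 8.55 to 8.67 in Dp3Yah and 8.48 to 8.72 in control, a change of 0.0042 (95% interval -0.11 to 0.12), and its other probe set changed by 0.0080.

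Across the 9 genes the lowest 95% bound was -0.14 (0.910-fold, Bace1) and the highest 0.19 (1.14-fold, Ncstn). A change of 1.5-fold in either direction lay outside the interval of each of the 9, whereas smaller changes within these bounds are not excluded. Of the changes, 6 were positive and 3 negative, but App and Psen2 turned positive with median centring of the arrays and Aph1a negative with a further quantile normalisation.

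Within the groups, Dp3Yah replicate 2 was the lowest mouse for 5 of the 9 genes (App, Aplp2, Bace2, Psen2 and Ncstn), and for 35.1% of all genes. Control replicate 3 was the lowest for 5 (App, Aplp1, Aplp2, Adam10 and Ncstn), and for 24.1% of all genes. Dp3Yah replicate 2 was also farthest along the first principal component of all genes, which held 26.2% of the variance, with the lowest mean of neuron markers and the highest of pyramidal cell and of microglia markers. With the group means taken off, Pearson's r of Aplp2 with App over the 10 arrays was 0.62, and 0.16 without Dp3Yah replicate 2. For Aplp1 it was -0.46, and 0.20 without that mouse. The other 6 genes had r with App between 0.16 (Bace1) and 0.50 (Bace2), and without that mouse Bace1 was at -0.44, Psen2 at 0.0097 and Aph1a at 0.61. The r of Aplp2 ranked 1966 among the genes compared, so that many genes followed App more closely than did any of the other 8.

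The genes whose values followed App most closely, among 9968 genes above the median level, were the glutamine transporter gene Slc38a1 (Pearson's r = 0.97, Spearman's rho = 0.94), the centrosomal anchoring protein gene Akap9 (r = 0.96, rho = 0.79) and Lrrfip2 (r = 0.96, rho = 0.95), over 10 arrays with group means taken off. Without Dp3Yah replicate 2 the values of r were 0.83, 0.72 and 0.81 in that order of genes. These are the highest of many values and were given no test, and the arrays share their normalisation. None of the 3 genes changed between the groups by the test (limma adjusted p of 0.939 for Slc38a1, 0.989 for Akap9 and 0.967 for Lrrfip2).

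Beyond the 9 genes, 5 lists of the pathway were read: other secretase genes, adaptors and partners of the precursor, genes of its traffic, genes that clear amyloid beta, and other substrates of the same enzymes. Of 85 listed genes 78 were measured. None passed over all genes, and 4 of the 78 (5.13%) reached an unadjusted p under 0.05, beside 5.08% of all genes; 3 of these were higher and 1 lower in Dp3Yah. By the rank test 2 of the 78 (2.56%) were past the threshold, namely Nae1 (f of 0.992) and Gga3 (f of 0.013), beside 4.59% of all genes. The list medians lay between -0.05 and 0.04.

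Of the other secretase genes, 6 of 7 were measured, 1 with a positive and 5 with a negative change. The median of -0.05 was -0.0062 without Dp3Yah replicate 2 and -0.0094 without control replicate 5. The smallest p values were those of Adam19, a metalloprotease, of Aph1b, another form of the scaffold subunit, and of the sheddase gene Adam17. Adam19 was at 6.51 ± 0.11 in Dp3Yah and 6.61 ± 0.10 in control, and Aph1b at 8.33 ± 0.13 in Dp3Yah and 8.27 ± 0.077 in control. Adam17 was at 6.54 ± 0.15 in Dp3Yah and 6.60 ± 0.13 in control (mean log2 value ± SD, n = 5 each). None of these reached an unadjusted p under 0.05, and 1 mouse moved them: Adam17 had a change of -0.06, but -0.01 without control replicate 5, and Aph1b one of 0.06, but 0.014 without Dp3Yah replicate 1. Among 15 of 16 adaptors and partners, 1 was past that level and higher, with a list median of 0.0013. It was Nae1, the regulatory subunit of the NEDD8-activating enzyme, which binds the tail of the precursor, at 8.99 ± 0.12 in Dp3Yah and 8.81 ± 0.066 in control. Its change was 0.18, 4 of 5 Dp3Yah mice lay above every control, and it did not pass over all genes (limma unadjusted p = 0.0084, adjusted p = 0.922). Apba3, an adaptor of the X11 family, had a change of -0.12, and the endocytic adaptor gene Numb one of -0.07.

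Of the genes of traffic, 18 of 19 were measured, and 1 was past the unadjusted level and lower, with a list median of 0.01. It was Gga3, a sorting adaptor known to send Bace1 to lysosomes, at 8.24 ± 0.14 in Dp3Yah and 8.42 ± 0.12 in control, a change of -0.17 that did not pass over all genes (limma unadjusted p = 0.0354, adjusted p = 0.922). Cd2ap, an adaptor of endocytosis, and Vps26a, a retromer subunit, had changes of 0.12 each. Among 18 of 19 genes of clearance, with a median of 0.01, 1 was past the unadjusted level and higher, namely Lrp1, a receptor that takes up amyloid beta. Lrp1 measured 9.92 ± 0.093 in Dp3Yah and 9.81 ± 0.047 in control, a change of 0.11 (limma unadjusted p = 0.0404, adjusted p = 0.922). The lipoprotein receptor gene Vldlr had a change of 0.09 and Ide, the insulin-degrading enzyme, one of 0.18, with Dp3Yah replicate 1 at 8.71 and the others of its group at 7.96 to 8.17, and a change of 0.05 without that mouse.

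Of the other substrates, 21 of 24 were measured, 16 with a positive and 5 with a negative change, and a median of 0.04. Dll1, a ligand of Notch receptors that is shed by Adam10, was past the unadjusted level at 6.25 ± 0.051 in Dp3Yah and 6.15 ± 0.051 in control (mean log2 value ± SD, n = 5 each). Its change of 0.10 did not pass over all genes (limma unadjusted p = 0.0334, adjusted p = 0.922). Dll1 lay below the median level of all genes, 6.38. Sez6, a neuronal substrate of Bace1, had a change of 0.13 and the sialyltransferase gene St6gal1 one of 0.11.

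**Figure D4:**
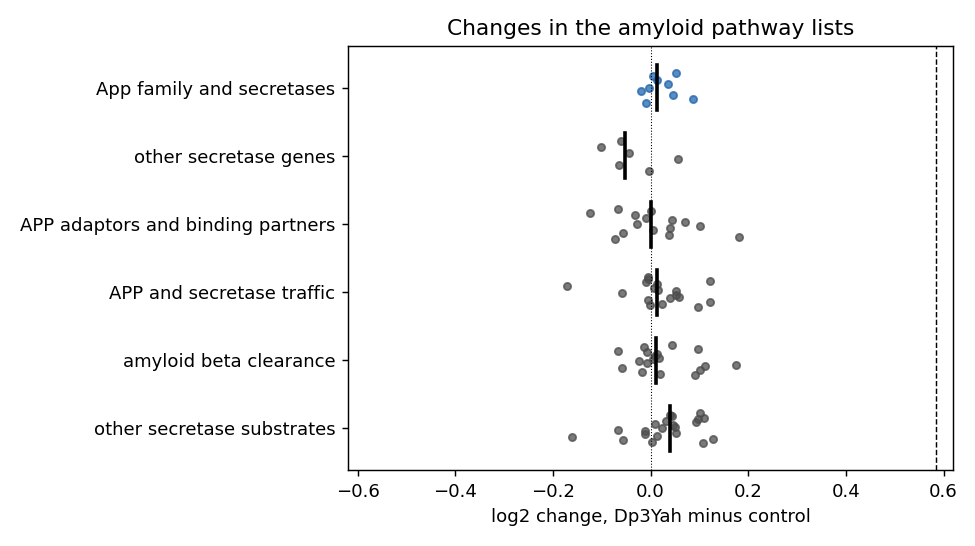
Log2 change (x axis, Dp3Yah minus control) of each measured gene of the 9 genes of the precursor family and secretases and of 5 lists of the pathway; points are genes and vertical bars the list medians. The dashed line is the log2 of 1.5 (0.58), and the list medians lie between -0.05 and 0.04.

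The hippocampus holds several cell types, and in bulk tissue fewer cells of a type and less RNA per cell cannot be told apart. Markers of 8 cell types were read with these lists, each as the mean of its genes in an array, and no marker passed over all genes. Neuron markers (5 of 5 measured, all above the median level of all genes) averaged 11.50 in Dp3Yah and 11.52 in control, and pyramidal cell markers 9.39 in Dp3Yah and 9.31 in control. Markers of dentate granule cells ran between 7.75 and 8.10 in Dp3Yah and between 7.99 and 8.23 in control, and 3 of 5 were lower at an unadjusted p under 0.05, beside 2.59% of all genes. Markers of microglia ran between 8.08 and 8.30 in Dp3Yah and between 8.03 and 8.11 in control, and 2 of 7 were higher at that level, beside 2.49% of all genes. Astrocyte markers averaged 10.26 in Dp3Yah and 10.20 in control, with 5 of 5 changes positive, endothelial markers 7.84 in Dp3Yah and 7.92 in control, with 0 of 5 positive, and oligodendrocyte markers (4 of 5 measured) 10.60 in Dp3Yah and 10.58 in control. Choroid plexus markers, of a tissue next to the hippocampus, varied most between arrays, at 6.42 to 8.51 in Dp3Yah and 6.35 to 8.58 in control. The part of these cell types in the values of the 9 genes and the lists was not tested.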

How the data were processed

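Total RNA of the hippocampus of 5 Dp3Yah and 5 control littermates was read on Affymetrix Mouse Gene 1.0 ST arrays, with a single array for each mouse. The deposited values are log2 expression values, 1 per probe set, for 35556 probe sets. The submitters' processing notes name RMA, which corrects background, normalises the arrays to a common distribution and summarises probes, and also limma and mm10; their versions were not given in the sources used here. Array medians lay between 5.64 and 5.71, no values were missing, and no arrays were identical. The number of arrays limits the precision.

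Each of 19939 genes was represented by the probe set annotated to it alone, with the highest mean where several existed. Coordinates and promoters were taken from RefSeq (GRCm38.p6), matched by gene. Groups were compared with limma 3.58.1 in R 4.3.3 (lmFit and eBayes, no covariate, two-sided), with Benjamini-Hochberg adjustment over all genes and a threshold of 0.05. Differences between genes within a mouse were tested two-sided by exact permutation (252 assignments) with Python 3.11.15, and their 95% intervals were found by inverting that test. The rank test of the study (FCROS) was rewritten, with a trim of 0.25 and thresholds of 0.025 and 0.975. Its f scales the mean rank of each gene by the mean and SD over all genes. The share of genes past the thresholds is therefore largely set by the method. The scripts were tested on simulated data.

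The members and lists were chosen with earlier results of these data known. The text names all 9 genes, the 4 three-copy neighbours, the 3 genes of every other list with the smallest unadjusted p, and the 3 genes most like App. As alternatives, each mouse was left out in turn, the rank test was used, arrays were weighted, the variance prior was trended and robust, arrays were centred on their medians or quantile-normalised again, genes below the median level were dropped, probe sets were averaged or all tested, and the replicate number entered as a block.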

Additional observations from a re-analysis of the deposited data

Results flagged for a closer look

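Each group of 5 mice was tested for a mouse far from the rest. Over the 9 genes and the named genes of the lists, 6 of 62 groups held one, where chance alone marks about 1 in 20 independent groups. Of these, 5 were among the 18 groups of the 9 genes. The groups are not independent, since all genes were read on the same arrays. The share over all genes was not computed, so these counts are not a trait of the 9 genes. Another 12 groups, of genes chosen for following App and of differences built from genes already counted, are not set against chance. The gap to the nearest other mouse is given as a share of the range of the group, with 0.71 as the critical value.

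For App the far mouse was Dp3Yah replicate 2, at 12.13 where the others lay at 12.32 to 12.39 (share 0.730). The same mouse was far below its group for Slc38a1, at 9.48 against 9.78 to 9.89 in the others (0.735), and for Akap9, at 7.38 against 7.72 to 7.84 (0.741), both of which were named for following App. For Adam10 it was Dp3Yah replicate 4, at 9.30 where the others lay at 9.10 to 9.14 (0.779). For Aph1a it was Dp3Yah replicate 5, at 8.67 where the others lay at 8.55 to 8.57 (0.825). For Aplp1 it was control replicate 1, at 11.30 where the other controls lay at 11.18 to 11.20 (0.798). For Bace1 it was control replicate 2, at 9.46 where the other controls lay at 9.27 to 9.32 (0.728). In Ide it was Dp3Yah replicate 1, at 8.71 where the others lay at 7.96 to 8.17 (0.716). In Bace1 minus Adam10 it was Dp3Yah replicate 1, at 0.291 where the others lay at 0.0996 to 0.142 (0.777).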

How the results depend on the processing

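None of the 9 genes passed over all genes under any of the 19 alternatives. The small changes of 5 of them changed sign. App was 0.0084 with median centring and 0.019 with array weights, had f of 0.67 in the rank test, and ran from -0.022 to 0.042 with 1 mouse left out. Bace1 was 0.0062 and Aph1a -0.00076 with array weights, Psen2 was 0.00049 with median centring, and Aph1a was -0.0033 with the second quantile normalisation. With 1 mouse left out, Aplp1 ran from -0.0066 to 0.034, Bace1 from -0.047 to 0.012, Psen2 from -0.046 to 0.012 and Aph1a from -0.019 to 0.041. Aplp2 (0.017 to 0.059), Bace2 (0.018 to 0.076) and Adam10 (0.015 to 0.067) kept their sign. Ncstn kept its sign, at 0.05 to 0.11, with a lowest unadjusted p of 0.0494 without control replicate 2. Bace2 gave no value with the filter on dim genes, as it lies below the median level. The same held for Dll1, Adamts5 and Grik1, which were named from the lists.

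Of the genes most like App, Slc38a1 was 0.024 by another probe set, Akap9 ran from -0.018 to 0.096 and Lrrfip2 from -0.065 to 0.019 with 1 mouse left out. Over all genes the 3 passing became 6 with a trended and robust variance, 5 with array weights and 1 to 4 with 1 mouse left out. By the rank test 915 genes (4.59%) were past the threshold. That test does not adjust for many tests, and its share is largely set by its construction, so 915 is no count of changed genes. With 1 mouse left out, the list medians ran from -0.084 to -0.0062 for other secretase genes, from -0.0093 to 0.022 for adaptors, from 0.0014 to 0.036 for traffic, from -0.00021 to 0.026 for clearance and from 0.018 to 0.053 for substrates.

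Whether the replicate numbers pair the mice cannot be told from 5 pairs. The deviations of mice of like number correlated at -0.36 to 0.32, and over 0.1 in 2 of 5 pairs. Of 10 mice, 4 correlated best with their own number, and this count was not tested. With the number as a block, 3 genes passed over all genes and none of the 9 did. App minus its three-copy neighbours kept its value of -0.44 under the block, with an exact sign-flip p of 0.0625, the smallest possible, and ran from -0.45 to -0.42 with 1 mouse left out (exact permutation p at most 0.0159).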
